A study of Homo sapiens with 3 samples.

Results

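The Notch pathway genes described here are 9 loci: the receptors NOTCH1, NOTCH2 and NOTCH3, the ligands JAG1, JAG2 and DLL1, the receptor-modifying enzyme LFNG, and the target genes HES1 and HEY1. Peaks of p63 and of ZNF148 were assigned to a locus by position alone, when the summit lay inside the gene's hg19 span or within 50 kb of it. This gave 37 p63 summits of 21922 in the whole list, and 103 ZNF148 summits of 39669. Summits that share an interval were counted as 1 peak, which left 37 p63 peaks of 21520 and 98 ZNF148 peaks of 37883 on chromosomes 1 to 22 and X. The peaks come from ChIP-seq, which recovers protein-bound DNA with an antibody, in untreated FaDu cells, an established cell line of pharyngeal squamous carcinoma. The series has 3 samples: a ΔNp63α library, a ZNF148 library and an input library made without antibody, which was not analysed here. Per the labels, the DNA came from 3 independent ChIP assays. Each antibody has 1 peak list, so replicate error cannot be given and no p-value is printed. Read depth is unknown from the lists, and a peak says where a protein was recovered, not whether the gene was expressed. At any of the loci, a peak in the flank may lie nearer to another gene than to the Notch gene.

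Notch receptors are cut after a ligand on a neighbouring cell binds them, and the freed intracellular part enters the nucleus and switches on target genes. In stratified squamous epithelia, p63 marks the basal, proliferating layer and Notch signalling accompanies the move towards differentiation. The ligands of the Jagged and Delta-like families sit on the signal-sending cell, LFNG (lunatic fringe) adds sugars to the receptor that change which ligand it answers to, and HES1 and HEY1 are transcriptional repressors induced by the pathway. ΔNp63α is the N-terminally truncated p63 of basal cells. ZNF148 is a transcription factor of the Krüppel type, with zinc fingers that contact GC-rich stretches.

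The 5′ ends of 8 of the 9 genes had a ZNF148 summit within 1 kb, and the DNA just upstream of 4 of these is shown because it is GC-rich to different degrees. The sequences are RefSeq promoter entries of build GRCh38.p14, each the 250 bases before the annotated start, read 5′ to 3′ in the direction of transcription. They are matched to the genes by symbol, not to the hg19 peaks by position. Capitals mark the GC box, searched as GGGCGG or CCGCCC, and a G-rich run, searched as GGGGAGGG or CCCTCCCC. The GC boxes of NOTCH3 include a pair that overlaps by 1 base, and no G-rich run overlapped a GC box in the sequences shown.
NOTCH2, chr1:120069663-120069912, minus strand: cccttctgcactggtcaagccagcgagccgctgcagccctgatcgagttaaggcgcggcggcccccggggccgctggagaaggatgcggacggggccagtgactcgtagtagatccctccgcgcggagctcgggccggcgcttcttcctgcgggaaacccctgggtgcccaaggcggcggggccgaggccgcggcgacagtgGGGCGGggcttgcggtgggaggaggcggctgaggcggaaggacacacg
NOTCH3, chr19:15200996-15201245, minus strand: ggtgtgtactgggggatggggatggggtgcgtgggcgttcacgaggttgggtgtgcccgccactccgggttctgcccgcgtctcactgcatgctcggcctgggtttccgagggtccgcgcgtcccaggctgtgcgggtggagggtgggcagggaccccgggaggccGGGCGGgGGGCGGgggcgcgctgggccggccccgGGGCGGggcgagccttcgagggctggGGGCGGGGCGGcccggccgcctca
JAG1, chr20:10674000-10674249, minus strand: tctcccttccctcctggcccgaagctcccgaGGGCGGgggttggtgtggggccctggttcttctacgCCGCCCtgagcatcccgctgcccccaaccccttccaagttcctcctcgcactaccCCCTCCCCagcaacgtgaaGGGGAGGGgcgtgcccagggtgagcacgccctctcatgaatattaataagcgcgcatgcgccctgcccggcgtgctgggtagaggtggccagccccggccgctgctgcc
HES1, chr3:194135898-194136147, plus strand: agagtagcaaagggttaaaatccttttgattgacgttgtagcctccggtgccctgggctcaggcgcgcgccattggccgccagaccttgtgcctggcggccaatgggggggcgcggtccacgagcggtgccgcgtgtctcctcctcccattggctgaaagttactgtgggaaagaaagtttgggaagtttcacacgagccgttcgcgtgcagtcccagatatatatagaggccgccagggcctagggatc

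Of the 9 genes, 7 had an entry that was searched, 8 entries in all because LFNG has 2 starts. A GC box was present in 6 of the 8 entries, against 42.6% of all 35116 entries. NOTCH3 had 5 of them, NOTCH1 4, JAG1 and JAG2 2 each, NOTCH2 and the outer LFNG start 1 each, and HES1 and the inner LFNG start none. The G-rich run was found in JAG1 alone among these entries, with 2 copies, and in 12.7% of all entries. The paired core of a p53-family site, searched as CATGNNNNNNCATG, was in none of the 8 and in 0.296% of all entries. The GC content of the 8 ran from 57.2% to 81.6%, beside a median of 58.0% over all entries. The 8 entries are few and were not matched to the others in GC content. Their share with a GC box is therefore not shown to be higher than that of like promoters. These matches describe the letters in this window and are not binding sites.

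Most of the Notch genes had a ZNF148 summit near the start, but most peaks of both proteins lay elsewhere in the loci. Of the 98 ZNF148 peaks, 14, or 14.3%, lay within 1 kb of a 5′ end. Within 1 kb of the gene's 5′ end, 8 of the 9 loci had a ZNF148 summit and 0 of the 9 had a p63 summit; this window is 1.44% of the DNA searched, so 0 of 37 p63 peaks there is no departure from what its length gives. The ZNF148 peaks there at JAG1 and HES1 were weak, with folds under 10. The gene spans used are rounded to 1 kb, so distances to the 5′ end carry that uncertainty, and exonic or intronic position was not determined. Of the 37 p63 peaks, 26 lay more than 10 kb from the 5′ end of the gene, or 70.3% (95% exact Clopper-Pearson interval 53.0 to 84.1%, counting error only), against 52 of the 98 ZNF148 peaks, or 53.1% (42.7 to 63.2%). That part made up 85.6% of the DNA searched. The median distance to the 5′ end was 36.0 kb for p63 and 11.5 kb for ZNF148. These medians pool the loci in unlike proportions. NOTCH2, with a span of 158 kb, held 7 p63 and 4 ZNF148 peaks, and NOTCH1, with 51 kb, held 2 and 30. Within 5 kb lay 5 p63 peaks, or 13.5% (4.54 to 28.8%), and 34 ZNF148 peaks, or 34.7% (25.4 to 45.0%), in 7.21% of the DNA searched. Within 10 kb lay 11 p63 peaks, or 29.7% (15.9 to 47.0%), and 46 ZNF148 peaks, or 46.9% (36.8 to 57.3%), in 14.4% of the DNA, so both proteins had more peaks there than the length alone gives. The same shares over all genes were not computed, since no hg19 annotation was used, so this placement is not shown to be particular to Notch genes.

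**Figure D1:**
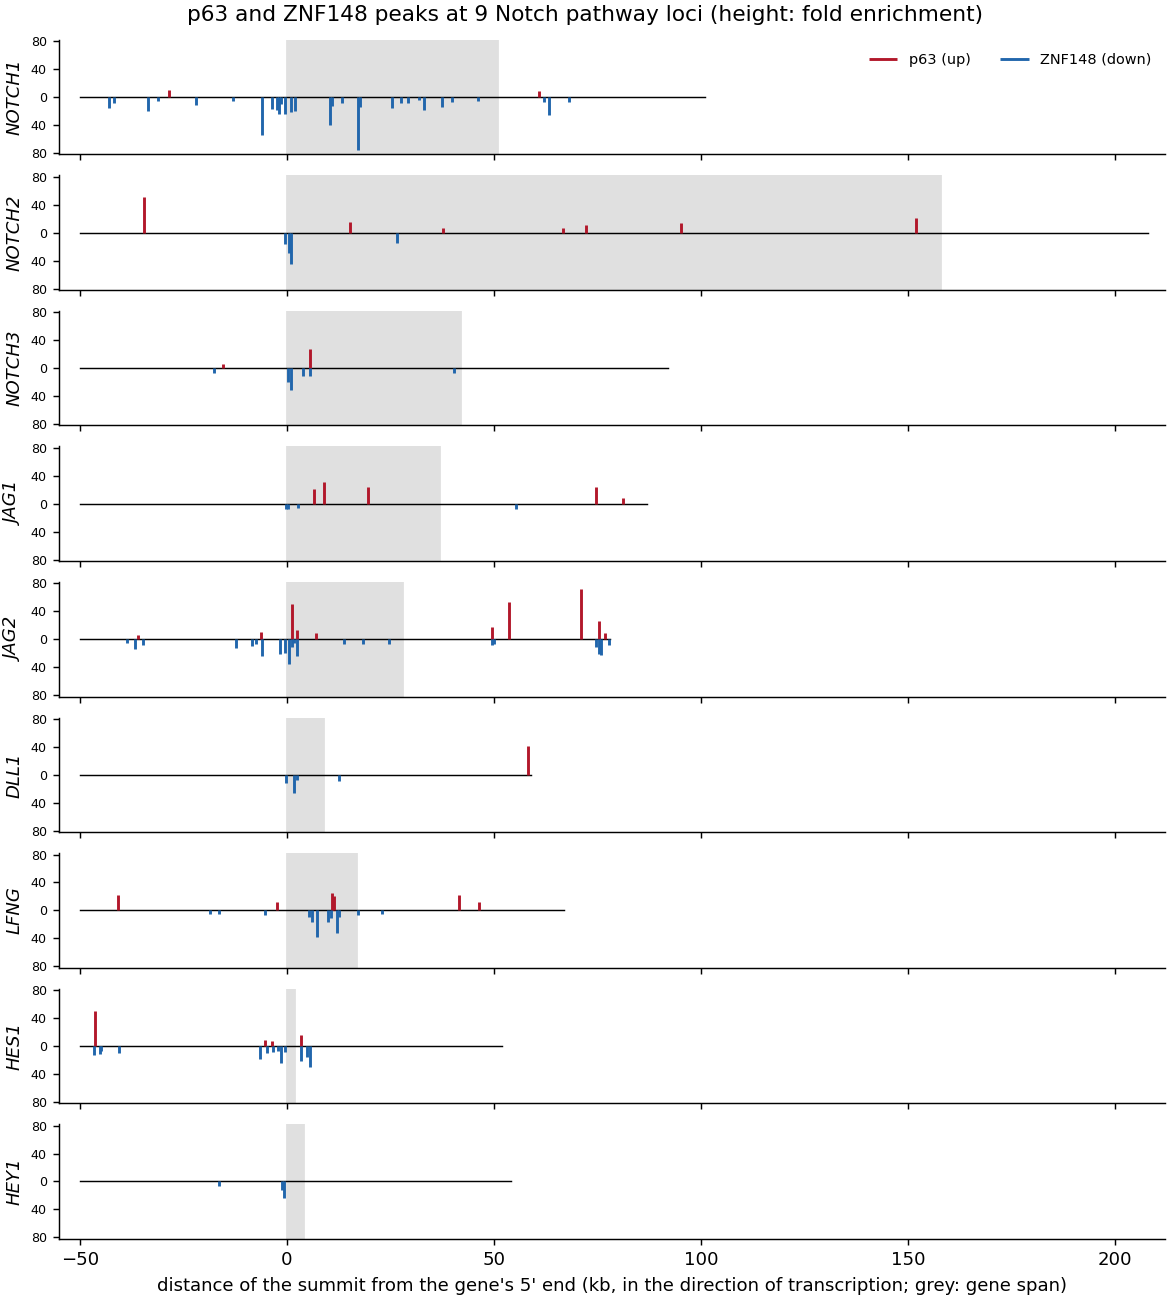
Each row is 1 locus, the horizontal axis is the distance of the summit from the gene's 5′ end in kb in the direction of transcription, and the grey area is the gene span. Lines point up for p63 and down for ZNF148 peaks, with the fold enrichment as height. In 8 of the 9 loci a ZNF148 line stands within 1 kb of the 5′ end, with others further away. No p63 line stands within 1 kb, and HEY1 has no p63 line.

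**Figure D2:**
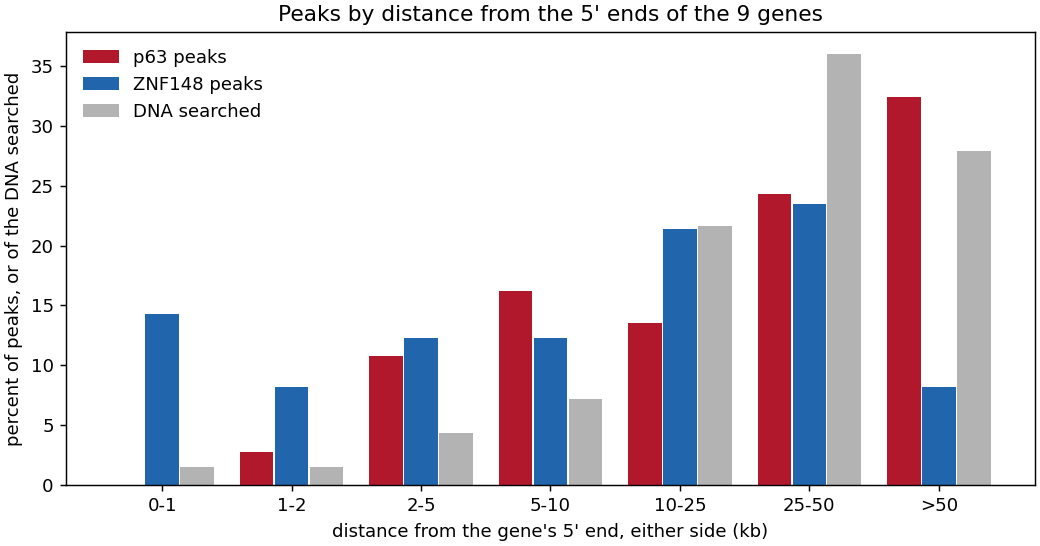
Bars give the percent of the 37 p63 peaks, the percent of the 98 ZNF148 peaks and the percent of the DNA searched in each class of distance from the 5′ end, in kb to either side. The class of 0 to 1 kb holds 0 p63 peaks and 14 ZNF148 peaks in 1.44% of the DNA.

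Without a test, the median fold was higher beyond 10 kb from the 5′ end for p63 and higher within 10 kb for ZNF148. Fold enrichment is the authors' ratio of signal to local background at the summit. p63 peaks more than 10 kb from the 5′ end had a median fold of 19.2, against 12.8 for the 11 p63 peaks within 10 kb. ZNF148 peaks more than 10 kb away had a median fold of 8.71, against 17.1 for the 46 within 10 kb and 20.3 for the 14 within 1 kb. The p63 folds ranged from 6.05 to 71.9 far from the start and from 7.08 to 50.3 within 10 kb. The ZNF148 folds ranged from 4.33 to 75.5 far from the start and from 5.05 to 54.4 within 10 kb. For both proteins the ranges overlap widely.

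Over all 9 loci, the folds were close to those of the lists they come from. The median fold of the p63 peaks was 15.8 at the Notch loci (95% exact binomial interval of the median 11.0 to 22.4), against 13.2 over the whole p63 list. A fold of 10 or more was reached by 27 of 37, or 73.0% (55.9 to 86.2%), against 65.1% of the whole list. For ZNF148 the median was 11.1 (8.91 to 14.5) at the loci and 9.83 over the list, and 57 of 98, or 58.2% (47.8 to 68.1%), reached a fold of 10, against 49.6%. All 4 intervals contain the value of the whole list. Peaks were denser at the loci, with 29.6 p63 peaks per Mb against 7.30 over the genome and 78.5 ZNF148 peaks per Mb against 12.8. The genome figure includes gene-poor DNA, and other genes were not measured for comparison.

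**Figure D3:**
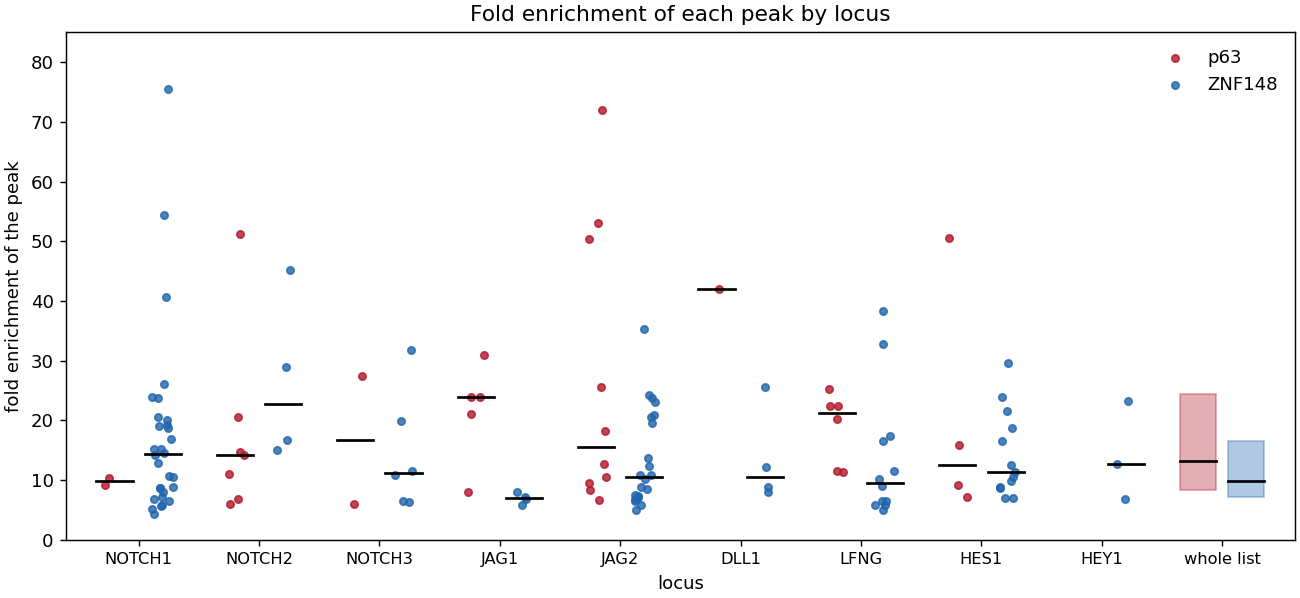
Each point is the fold enrichment of 1 peak, p63 to the left and ZNF148 to the right within a locus, with a black line at the median; the boxes at the right are the quartiles of the whole lists. The strongest p63 peaks stand at JAG2, NOTCH2 and HES1, and the strongest ZNF148 peaks at NOTCH1 and NOTCH2.

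The receptor loci all held peaks of both proteins, in unlike numbers. The ZNF148 list is the longer, with 37883 peaks against 21520 of p63. NOTCH1 on chromosome 9, the receptor best known from squamous epithelium, had 2 p63 peaks and 30 ZNF148 peaks. Neither p63 peak lay in the gene: the first was 28.6 kb upstream at chr9:139468425-139468662 with a fold of 10.3, and the second 60.8 kb downstream of the 5′ end, past the 3′ end, with a fold of 9.23. Of the 30 ZNF148 peaks, 15 lay in the gene span, 12 upstream and 3 downstream, with folds of 4.33 to 75.5. The strongest was 17.0 kb inside the gene at chr9:139422515-139423331, with a fold of 75.5 and rank 103 of 37883 by q value. A peak 5.998 kb upstream had a fold of 54.4 and one 10.4 kb inside had a fold of 40.6. The peaks nearest to the 5′ end, 0.995 kb inside and 0.557 kb upstream, had folds of 20.6 and 23.9. Within the 50 kb limit, no NOTCH1 peak of either protein overlapped one of the other, and the smallest distance between their summits was 1302 bp. Beyond it, p63 peaks 51.9 and 78.5 kb from the gene span, with folds of 39.3 and 72.9, did overlap a ZNF148 peak.

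NOTCH2 on chromosome 1 showed the reverse balance, with 7 p63 peaks and 4 ZNF148 peaks. It has the longest span of the 9 genes, at 158 kb, and 6 of the p63 peaks were spread through it, from 15.2 to 151.9 kb after the 5′ end, with folds of 6.05 to 20.5. The strongest p63 peak was 34.5 kb upstream at chr1:120646388-120646694, with a fold of 51.2 and rank 462 of 21520. The ZNF148 peaks were gathered instead, with 3 of the 4 within 1 kb of the 5′ end. Their folds were 45.2 at 0.855 kb inside, 28.9 at 0.469 kb inside and 16.7 at 0.568 kb upstream. The first of these, chr1:120610966-120611328, ranked 442 of 37883. The nearest p63 and ZNF148 summits at NOTCH2 were 11084 bp apart. NOTCH2 has partial copies elsewhere on chromosome 1, and how the authors treated reads that match several places is not stated.

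NOTCH3 on chromosome 19 had 2 p63 and 6 ZNF148 peaks. Its stronger p63 peak, chr19:15306303-15306566, lay 5.58 kb inside the gene with a fold of 27.4 and overlapped a ZNF148 peak with a fold of 11.5, with the summits 58 bp apart. The other p63 peak, 15.5 kb upstream, had a fold of 6.05. ZNF148 was strongest at chr19:15310527-15311277, 0.949 kb inside, with a fold of 31.7, and a second ZNF148 peak 0.155 kb inside had a fold of 19.9.

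The Jagged ligand genes carried p63 peaks in the gene as well as beyond it. JAG1 on chromosome 20 had 5 p63 and 4 ZNF148 peaks. The 3 p63 peaks inside the gene had folds of 21.0 at 6.43 kb, 31.0 at 8.93 kb and 23.8 at 19.6 kb from the 5′ end. The first, chr20:10648405-10648726, was the most significant p63 peak of the locus and ranked 4176 of 21520. ZNF148 was weak here, with folds of 5.77 to 7.94, and 2 of its peaks lay within 1 kb of the 5′ end, at 0.221 kb inside with a fold of 6.88 and at 0.320 kb upstream, chr20:10655191-10655415, with a fold of 7.94. All 4 ZNF148 folds at JAG1 were below the median of the ZNF148 list, while 4 of the 5 p63 folds were above the median of the p63 list. No JAG1 peaks overlapped, and the closest summits were 3792 bp apart.

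JAG2 on chromosome 14 had the most p63 peaks of the 9 loci, 10, with 22 ZNF148 peaks. The strongest p63 peak of all the loci was chr14:105563831-105564150, with a fold of 71.9 and rank 241 of 21520. It lay beyond the 3′ end, 71.0 kb from the 5′ end, and a second p63 peak there, 53.5 kb from the 5′ end, had a fold of 53.1. The p63 peak nearest to a gene start in the whole set was also at JAG2: chr14:105633536-105633875, 1.29 kb inside the gene, with a fold of 50.3 and rank 1774. ZNF148 was strongest at chr14:105634373-105634682, 0.492 kb inside, with a fold of 35.4, and a ZNF148 peak 0.393 kb upstream had a fold of 19.5. In GRCh38 the next protein-coding gene on the 5′ side is NUDT14 and on the 3′ side GPR132, so peaks in the flanks may lie nearer to those genes.

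DLL1 on chromosome 6, a Delta-like ligand, had no p63 peak in or beside the gene. Its only p63 peak, chr6:170541643-170541937, lay 49.2 kb from the span, past the 3′ end, with a fold of 41.9, at the edge of the region searched. In GRCh38 the gene FAM120B overlaps DLL1, so ZNF148 peaks in or beside DLL1 cannot be assigned to DLL1 alone. The 4 ZNF148 peaks had folds of 7.94 to 25.6. The strongest, chr6:170598024-170598365, was 1.78 kb inside the gene, and a peak 0.136 kb upstream had a fold of 12.1.

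LFNG on chromosome 7 had 6 p63 and 12 ZNF148 peaks and was the locus without a ZNF148 summit within 1 kb of the 5′ end. RefSeq lists 2 starts for it, and distances here refer to the outer one. In GRCh38 the inner start lies 5334 bp after the outer one, and ZNF148 peaks 5.24 and 6.03 kb after the outer start had folds of 10.1 and 17.3, so the exception depends on the start chosen. All 7 ZNF148 peaks of the gene span lay 5.24 to 12.7 kb inside, the strongest at chr7:2559093-2559454 with a fold of 38.2. A neighbouring pair of p63 peaks lay among them, chr7:2562718-2562997 with a fold of 25.2 and chr7:2563115-2563449 with a fold of 20.2, the second being the most significant p63 peak of the locus. All 6 p63 folds at LFNG were at least 11.3.

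The target genes HES1 and HEY1 differed in p63. HES1 on chromosome 3 had 4 p63 and 13 ZNF148 peaks, none inside its span of 2 kb. The strongest p63 peak, chr3:193807430-193807747, was 46.4 kb upstream, with a fold of 50.6 and rank 1105 of 21520. The other 3 were closer, at 5.37 and 3.57 kb upstream with folds of 9.20 and 7.08, and at 3.34 kb after the 5′ end, past the 3′ end, with a fold of 15.8. Of the 13 ZNF148 peaks, 7 lay within 5 kb of the 5′ end. The strongest, chr3:193859401-193859680, was past the 3′ end with a fold of 29.7, and the peak 0.557 kb upstream had a fold of 8.75. HEY1 on chromosome 8 had no p63 peak and 3 ZNF148 peaks, the strongest 0.619 kb upstream at chr8:80680480-80680767 with a fold of 23.2. The p63 summit nearest to any of them was 176039 bp away. Of all 29477 windows of 100 kb in the genome, 44.9% held a p63 summit and 51.8% a ZNF148 summit, so a stretch of this length without p63 is common.

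The title of the series speaks of cooperation between p63 and ZNF148, and the overlap of peaks at these genes asks how often the sites of the 2 proteins coincided there. Among the 37 p63 peaks, 9 shared at least 1 bp with a ZNF148 peak, or 24.3% (11.8 to 41.2%), against 21.2% of the whole p63 list. Seen from ZNF148, 9 of its 98 peaks overlapped one of p63, or 9.18% (4.29 to 16.7%), against 12.1% of the whole list. Both shares are near their background. The overlaps were found at 4 of the 9 loci, with 5 of the 9 at JAG2, 2 at HES1 and 1 each at NOTCH3 and LFNG. Without JAG2 the p63 share was 14.8% and the ZNF148 share 5.26%. With overlap required over 50% of both peaks, or summits within 100 bp, they were 13.5% and 5.10%. The whole-list shares under these stricter limits were not computed, so these values cannot be set against 21.2% and 12.1%. The other 5 loci, NOTCH1, NOTCH2, JAG1, DLL1 and HEY1, had no overlapping peaks.

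Summits within 25 bp of each other were found at 2 of the 37 p63 peaks, or 5.41% (0.661 to 18.2%), against 13.5% of the whole list. Both were in the 3′ flank of JAG2. At chr14:105585433-105585764 the summits were 3 bp apart, with a p63 fold of 18.1 and a ZNF148 fold of 8.75. At chr14:105559492-105559944 they were 20 bp apart, with a p63 fold of 25.5 and a ZNF148 fold of 20.6.

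The other 7 overlapping pairs had summits 57 to 245 bp apart. At JAG2 they were the peak 1.29 kb inside the gene (140 bp; p63 fold 50.3, ZNF148 fold 10.8), the one 2.304 kb inside (85 bp; 12.8 and 23.8) and the one 6.16 kb upstream (57 bp; 10.5 and 24.2). At HES1, the pair 46.4 kb upstream had summits 238 bp apart, with a p63 fold of 50.6 and a ZNF148 fold of 12.5. The HES1 pair past the 3′ end had summits 118 bp apart, with a p63 fold of 15.8 and a ZNF148 fold of 21.5. The LFNG pair shared only 6 bp of sequence, with summits 245 bp apart, a p63 fold of 25.2 and a ZNF148 fold of 11.5. p63 had the higher fold in 6 of the 9 pairs, but folds of different libraries also differ by depth and background. The share of such pairs over the whole lists was not computed. The overlapping peaks of the whole lists had median folds of 26.2 (p63) and 23.8 (ZNF148), beside 25.2 and 12.5 at the Notch loci. These medians do not compare the peaks pair by pair. Whether a higher p63 fold within pairs is particular to these loci was not tested.

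**Figure D4:**
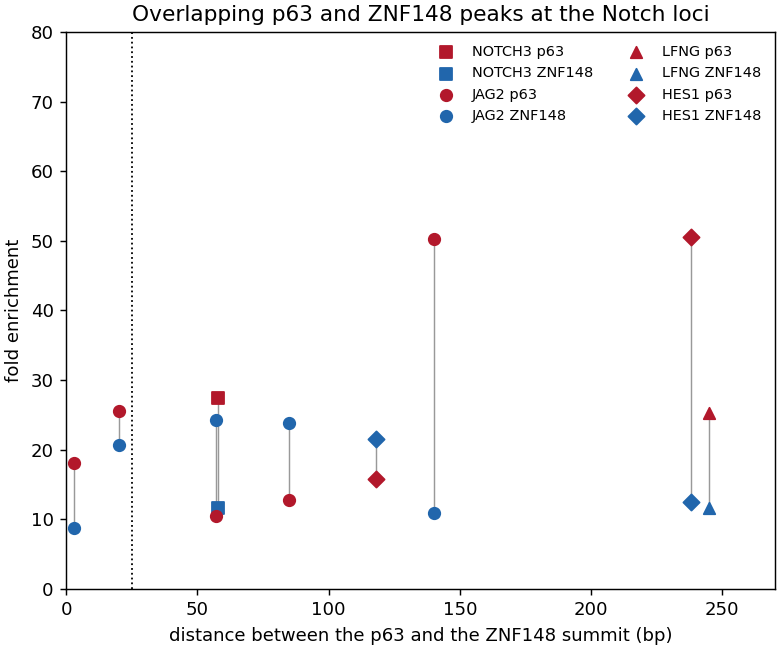
Each vertical line joins the fold enrichment of a p63 peak (red) and the ZNF148 peak it overlaps (blue), placed by the distance between their summits in bp; the dotted line marks 25 bp and symbols mark the locus. Only 2 of the 9 pairs, both at JAG2, lie left of the line.

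Peaks that did not overlap could still be neighbours. The median distance from a p63 summit to the nearest ZNF148 summit was 3560 bp at the Notch loci, against 11732 bp over the whole p63 list. It was 229 bp over the 4 HES1 peaks and 438 bp over the 10 JAG2 peaks, but 16963 bp over the 5 JAG1 and 40194 bp over the 7 NOTCH2 peaks. ZNF148 peaks were denser at these loci, with 78.5 per Mb against 12.8 over the genome. Whether this density accounts for the shorter median distance was not tested.

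The limit of 50 kb decided some of these counts. Just inside it lay the DLL1 p63 peak at 49.2 kb and a JAG2 p63 peak at 48.8 kb with a fold of 9.58, neither overlapping ZNF148, then a JAG2 peak at 47.4 kb and the HES1 peak at 46.4 kb, which both did. Just outside lay a p63 peak 51.9 kb from NOTCH1, chr9:139491746-139492127, with a fold of 39.3, and p63 peaks 52.3 and 53.0 kb from JAG2, with folds of 6.56 and 56.0, which overlapped a ZNF148 peak, and a p63 peak 55.0 kb from DLL1 with a fold of 19.6, which did not. For ZNF148, the nearest peak inside was at 49.7 kb and the nearest outside at 50.3 kb, both at JAG2, with folds of 8.43 and 8.13.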

How the data were processed

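The deposited peak lists give, for each peak, the authors' fold enrichment (a ratio over local background), −log10 q value and summit; they have no header and were read in narrowPeak order. Per the submitters' processing notes, the tools were MACS2 2.2.6, SAMtools 1.7, Bowtie2 2.3.4.3, MultiQC 1.12 and FastQC 0.11.9 and the build hg19, with no settings; the control library and read filters are not given in the sources used here. Rows with an identical interval were reduced to the summit of highest −log10 q, and the strongest peak of a locus is the one with the highest −log10 q. Per locus, the peaks named are that peak, overlapping pairs and peaks within 1 kb of the 5′ end; further peaks were chosen after their values were seen. The members and limits were chosen with earlier results of these data known. Coordinates are 1-based. Shares carry 95% exact binomial intervals, which treat peaks as independent. The direction of transcription was checked against RefSeq for 7 genes. Other pathway genes were not analysed here, for want of hg19 positions. Stricter limits, other flanks, overlap rules and left-out loci were tried. Overlap functions were tested on simulated peaks. Python 3.11.15, numpy 2.4.6, pandas 2.3.3 and scipy 1.17.1 were used.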

Additional observations from a re-analysis of the deposited data

How the results depend on the processing

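Of 124 recomputed values, 112 stayed within the interval of the reported one (counts within 1.5 times) and 12 moved. The intervals of the shares are wide, so staying within them is a weak check. A p63 overlap share of 13.5%, against 24.3% as reported, still counted as unmoved. Many of the values come from leaving out 1 locus, which keeps most of the same peaks. The p63 count of 37 became 24 with a flank of 25 kb, 62 with 100 kb and 15 in the gene spans alone, where ZNF148 had 41. Among peaks with a fold of 10 or more, ZNF148 had 57 with a median fold of 18.8, and with a −log10 q of 10 or more its median fold was 16.6. The share of ZNF148 peaks counted as shared was 17.3% when peaks within 500 bp were included, 14.04% at a fold of 10 or more and 13.8% with a flank of 100 kb. The share of p63 summits matched within 25 bp was 2.70% with lists of equal length and 3.23% with a flank of 100 kb. A change of flank leaves the whole-list shares at 12.1% and 13.5%. Whole-list shares were not recomputed for the 500 bp rule, the fold limit or lists of equal length, so those values lack a background. Summits within 25 bp were found at 0% of p63 peaks in the gene spans alone or without the JAG2 locus, which held both such sites. The loci with a p63 summit near the 5′ end, 0 at 1 kb, were 1 at 2 kb and 3 at 5 kb. ZNF148 had a summit within 1 kb of the 5′ end at 6 of the 9 loci, without JAG1 and HES1, when a fold of 10 was required. Weaker sites are outside both lists, and their detection depends on a read depth that is unknown.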
